A study of Mus musculus with 4 samples.

Results

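Nicotinic acetylcholine receptor subunits were followed in mouse embryonic stem cells (ESCs) with and without the repressor REST. The 10 genes Chrna1, Chrna2, Chrna3, Chrna4, Chrna5, Chrna7, Chrna9, Chrnb1, Chrnb2 and Chrnb4 were taken by symbol from the 26301 genes of the count table, and 9 of them had enough reads to be tested. Chrna2 did not. Libraries prepared from total RNA were sequenced, 2 libraries of N6 ESCs, which are WT, and 2 libraries of N8 ESCs, which are Rest-/-. Both lines grew in serum with LIF, first on irradiated fibroblast feeders and then on gelatin, which was meant to remove the feeders before harvest. Each genotype was 1 line, so that line and genotype cannot be told apart, and the p-values below measure the spread between libraries that the labels call biological replicates.

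Nicotinic receptors are ligand-gated cation channels that open when acetylcholine binds. Each channel is a ring of homologous subunits, and the mixture of alpha and beta subunits sets where the receptor is found and how it responds. In the brain the common partners are the products of Chrna4 and Chrnb2, autonomic ganglia use those of Chrna3, Chrna5 and Chrnb4, skeletal muscle uses those of Chrna1 and Chrnb1 with further subunits, and the products of Chrna7 and Chrna9 can form channels without a beta subunit. REST is a zinc finger repressor that binds the RE1 motif and recruits histone deacetylases. It is known for keeping neuronal genes silent in cells that are not neurons.

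Library totals lay between 22293966 and 30953863 counts. Rest itself was read at 7908 and 6233 counts in WT ESCs and at 4244 and 3890 counts in Rest-/- ESCs, so the gene still gave reads in the Rest-/- line (log2 fold change -0.52, SE 0.13, adjusted p = 0.526). The ESC marker Pou5f1 was at 670 and 705 CPM in WT and at 701 and 751 CPM in Rest-/- ESCs, where CPM is the count scaled to a library size normalised by TMM. Of the 15444 genes tested, 8 were higher and 1 was lower in Rest-/- ESCs at an adjusted p under 0.05. Fibroblast markers summed to 33.3 and 33.4 CPM in WT and to 116 and 32.4 CPM in Rest-/- ESCs, high in Rest-/- replicate 1 alone, with Lum at 0 in all libraries. Neuron markers summed to 200 and 226 CPM in WT and to 235 and 291 CPM in Rest-/- ESCs, neural progenitor markers to 66.6 and 162 against 134 and 156 CPM, and skeletal muscle markers to 16.9 and 45.0 against 26.2 and 48.5 CPM. ESC markers summed to 3555 and 3321 against 2762 and 2842 CPM. Of these 8 markers, 6 had a negative log2 fold change, where 7853 of all 15444 genes did. Pou5f1 was 1 of the 2 with a positive one, and the median of the 8 was -0.21. For 3 of the 8, Nanog, Zfp42 and Klf4, both Rest-/- libraries lay below both WT libraries, where 15.4% of all tested genes did. The edgeR quasi-likelihood test called no gene of these 5 lists, with 3 ESC, 1 progenitor and 1 neuron marker at an unadjusted p under 0.05. The sums hide single markers that stood far apart, named here after their values were seen, and each of them was called by both edgeR exact tests and by DESeq2. Olig2 had 158 and 172 counts in WT and 1 and 0 counts in Rest-/- ESCs, Zfp42 was at 705 and 541 against 258 and 226 CPM, and Elavl3 was at 19.7 and 22.3 against 66.0 and 67.2 CPM. Their part in the results was not tested. In RNA from whole cultures, fewer cells of a type and less RNA per cell cannot be told apart.

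Chrnb2, which encodes the beta2 subunit of the brain receptor, rose from a low level to the most abundant nicotinic transcript per length. The WT libraries held 52 and 69 Chrnb2 counts, and the Rest-/- libraries held 1780 and 1566. Both Rest-/- libraries lay far above both WT libraries, and the Rest-/- libraries lay closer together in CPM, at 68.9 and 70.7, than the WT libraries, at 1.68 and 2.58, did for their level. With 2 libraries each, the mean was 2.13 ± 0.634 (SD) CPM for WT, and for Rest-/- it was 69.8 ± 1.28 (SD). The edgeR quasi-likelihood test, whose adjusted p is the one given below unless another tool is named, put the log2 fold change at 5.04 (standard error, SE, 0.28; adjusted p = 0.0388), rank 18 among all genes tested. Chrnb2 was the 1 subunit called of the 9 tested, in a comparison that called 0.0518% of all genes as higher and 0.0583% in either direction. On the log2(CPM + 0.5) scale, the libraries numbered 1 differed by 4.99 and those numbered 2 by 4.53. The fitted log2 fold change was as large, at 5.06, without Rest-/- replicate 1, the library with the high fibroblast markers. The call was lost when at least 10 counts were required in every library (adjusted p = 0.0626), with a log2 fold change of 5.04.

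**Figure D1:**
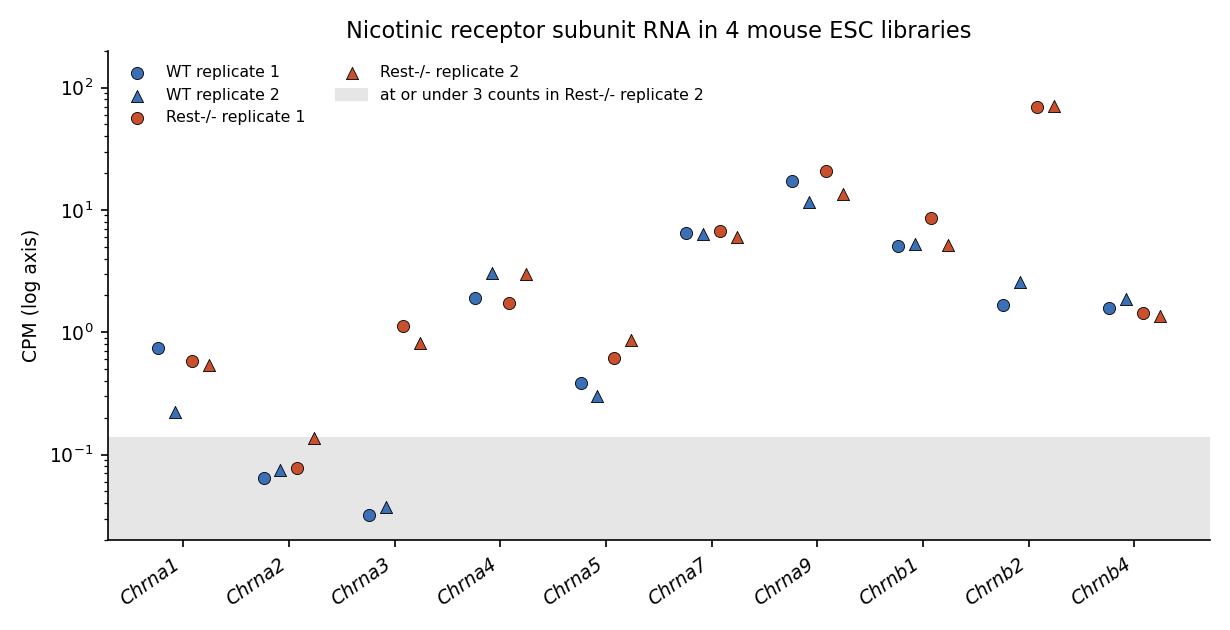
CPM of each of the 10 subunits on a log axis, 1 point per library, blue for WT and orange for Rest-/-, circles for replicate 1 and triangles for replicate 2; the grey band marks 3 counts or fewer in Rest-/- replicate 2. Chrnb2 moved from 1.68 and 2.58 CPM in WT to 68.9 and 70.7 CPM in Rest-/- ESCs, and Chrna3 left the band in Rest-/- ESCs alone.

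Chrnb2 lies on the minus strand of chromosome 3, from 89557370 to 89568554 in NCBIM37 (mm9), and it was the 1 subunit with a full RE1 core near its start site. The core searched was CAGNACC, any 2 bases and then GGACAG, 15 bases with 12 informative positions, on both strands. The match lay at chr3:89568380-89568394 on the minus strand, 167 bp downstream of the annotated start and within the 5′ UTR. The site is shown because it sits in the gene with the large difference, with 6 bases on either side and with capitals at the informative positions that match.
Chrnb2: cggcttCAGcACCacGGACAGcgctcc
Of the 14159 tested genes with a position in the annotation, 0.728% had such a match within 1 kb of a start site and 4.44% within 20 kb. A match is a description of the sequence, and binding was not measured here.

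None of the 4 genes around Chrnb2 was called. Adar, which encodes an RNA-editing enzyme, runs towards Chrnb2 on the other strand and ends 2 bp from it. Adar had 2852 and 2601 counts in WT and 2375 and 2449 counts in Rest-/- ESCs, a log2 fold change of 0.098 (SE 0.16, adjusted p = 1.00). On the far side, Ube2q1 was at 126 and 138 CPM in WT and at 138 and 147 CPM in Rest-/- ESCs, without overlap but with a log2 fold change of 0.12 (SE 0.13). The next genes out, Kcnn3 and She, had log2 fold changes of 0.20 and 0.40, both with an adjusted p of 1.00. No annotated exon overlapped an exon of Chrnb2. The strand setting of the counting is not given in the sources used here.

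Chrna3, the ganglionic alpha3 subunit, went from 1 count in each WT library to 29 and 18 counts in the Rest-/- libraries. The groups did not overlap, but the WT counts were below the floor of 3 counts at which a gene was taken as detected, and the gene passed the filter on low counts through the Rest-/- libraries. The summed counts, 2 in WT and 47 in Rest-/- ESCs, gave a ratio of 28.3 after scaling, with an exact 95% interval from 7.40 to 240.3, which covers counting error only. The fitted log2 fold change was 4.63 (SE 0.60, adjusted p = 0.166), and it was 3.24 with a prior count of 2. Chrna3 was not called by that test. It was called by edgeR's exact test with tag-wise dispersion (adjusted p = 7.3e-05), which called 1.31% of all genes as higher. DESeq2 also called Chrna3, close to the threshold (SE 1.41, adjusted p = 0.0476), and called 185 of 16305 genes as higher. Even in Rest-/- ESCs its level was 0.968 ± 0.219 CPM (SD, n = 2).

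Chrna3 sits between Chrna5 and Chrnb4 on chromosome 9, and none of the 3 genes of this cluster was called by the quasi-likelihood test. Chrna5, an accessory subunit, had 12 and 8 counts in WT and 16 and 19 counts in Rest-/- ESCs. Both Rest-/- libraries were above both WT libraries, but the log2 fold change of 1.09 (SE 0.46, adjusted p = 0.818) did not pass the threshold. Chrnb4, the usual ganglionic beta subunit, had 49 and 50 counts in WT and 37 and 30 counts in Rest-/- ESCs. Its libraries lay the other way, with both Rest-/- libraries below both WT libraries and a log2 fold change of -0.31 (SE 0.34, adjusted p = 1.00). Chrnb4, on the same strand, ends 1597 bp upstream of the Chrna3 start, and Chrna5, on the opposite strand, ends 3564 bp from the end of Chrna3. The outer neighbours, the proteasome gene Psma4 and Ube2q2, had log2 fold changes of -0.032 and -0.32, neither of them called.

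**Figure D2:**
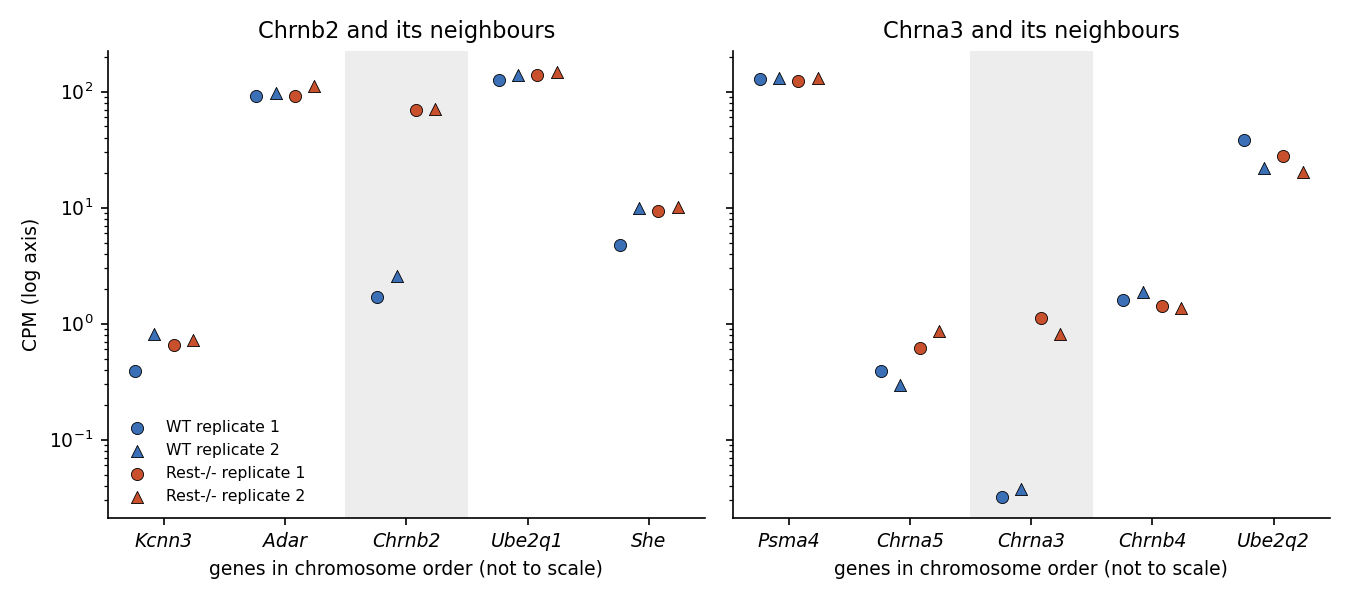
CPM on a log axis of Chrnb2 (left) and Chrna3 (right), shaded, each between the nearest 2 genes on either side in chromosome order, 1 point per library with colours for genotype and shapes for replicate. Adar stayed between 91.9 and 111 CPM in the 4 libraries, while Chrnb2 beside it went from 2.58 CPM or less to 68.9 CPM or more.

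Over the 9 tested subunits, 3 (Chrnb2, Chrna3 and Chrna5) had both Rest-/- libraries above both WT libraries, where 16.5% of all tested genes did, and 1 (Chrnb4) had both below, where 15.4% did. Chrna3 passed the filter on low counts only through its Rest-/- libraries, so its place among the 3 was set by that filter. The median log2 fold change of the 9 was 0.25, beside -0.0047 for all 15444 genes. No test was made of the set.

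Chrna4, which encodes the alpha4 partner of beta2, did not follow Chrnb2. It had 59 and 82 counts in WT and 45 and 66 counts in Rest-/- ESCs, with overlapping groups. The log2 fold change was -0.074 (SE 0.46, adjusted p = 1.00), and its sign changed when WT replicate 2 (0.31) or Rest-/- replicate 1 (0.27) was left out, while it was -0.38 without WT replicate 1 and -0.51 without Rest-/- replicate 2. Per kilobase of annotated exon, Chrnb2 stood to Chrna4 at a ratio of 0.808 and 0.772 in WT, and of 36.3 and 21.8 in Rest-/- ESCs.

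Chrna7, whose product forms a channel on its own, had the smallest absolute log2 fold change of the 9 tested subunits. It had 200 and 171 counts in WT and 174 and 134 counts in Rest-/- ESCs, which is 6.42 ± 0.0537 and 6.39 ± 0.484 CPM (SD, n = 2 each). The log2 fold change was -0.0065 (SE 0.25), and when single libraries were dropped it stayed between -0.082 and 0.064.

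Chrna9, known from the hair cells of the inner ear, was the most abundant subunit per length in WT ESCs. It had 536 and 312 counts in WT and 540 and 301 counts in Rest-/- ESCs. In both genotypes replicate 1 was above replicate 2, at 17.3 against 11.6 CPM in WT and at 20.9 against 13.6 CPM in Rest-/- ESCs, so that the replicates differed by more than the genotypes did. Between libraries of the same number, a pairing that the labels do not state, Rest-/- was higher both times. The differences were 0.26 for number 1 and 0.21 for number 2 on the log2(CPM + 0.5) scale. The log2 fold change was 0.25 (SE 0.34, adjusted p = 1.00), and it was -0.0045 without WT replicate 2 and -0.088 without Rest-/- replicate 1, but 0.56 without WT replicate 1 and 0.52 without Rest-/- replicate 2. Its partner in hair cells, Chrna10, had between 1 and 6 counts in any library and was not tested.

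Of the muscle subunits, Chrnb1 had 157 and 140 counts in WT and 222 and 115 counts in Rest-/- ESCs, which is 5.07 and 5.23 CPM in WT and 8.59 and 5.19 CPM in Rest-/- ESCs, with overlapping groups. Its log2 fold change of 0.42 (SE 0.35, adjusted p = 1.00) was 0.016 without Rest-/- replicate 1 and 0.73 without Rest-/- replicate 2. Chrna1, the muscle alpha subunit, had 23 and 6 counts in WT and 15 and 12 counts in Rest-/- ESCs. Its log2 fold change of 0.20 (SE 0.68) ran from -0.40 without WT replicate 2 to 1.30 without WT replicate 1. The other muscle subunits, Chrnd, Chrne and Chrng, reached at most 14 counts and were not tested. Of the 7 skeletal muscle markers, the regulators Myod1, Myog and Myf5 had at most 12 counts in any library, while Des had 373 to 614 counts, Acta1 56 to 490, Myh3 76 to 146 and Actc1 0 to 12. Chrna2 had 2, 2, 2 and 3 counts, at or under the floor in all libraries, and no fold is given for it.

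**Figure D3:**
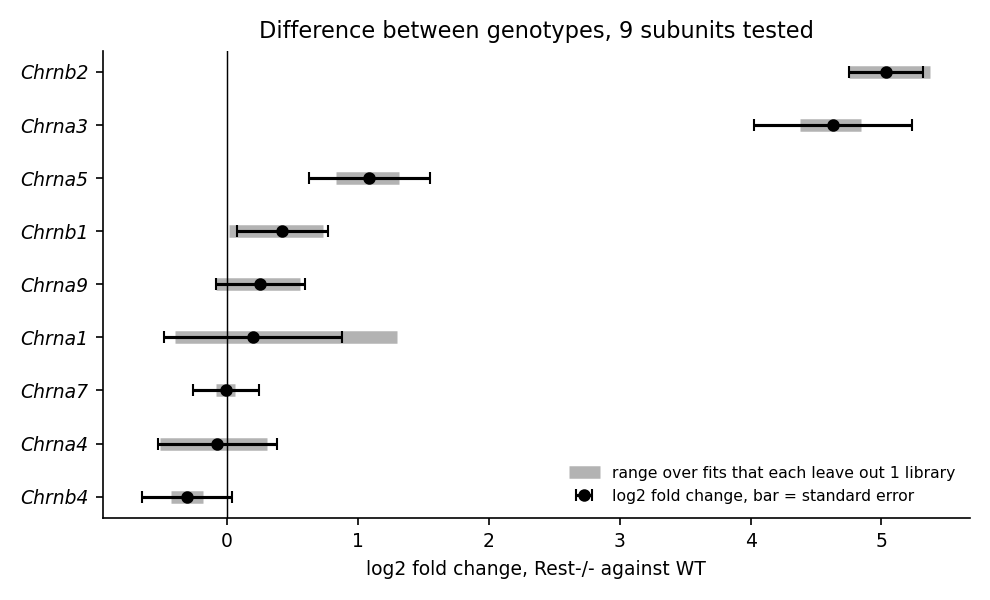
Fitted log2 fold change of Rest-/- against WT for the 9 tested subunits, with the standard error as a black bar and in grey the range when each of the 4 libraries was dropped in turn. Chrnb2 lies at 5.04 and the other subunits between -0.31 and 1.09, apart from Chrna3 at 4.63, which was not called and rests on 1 count in each WT library, so that its value depends on the prior count (3.24 with a prior count of 2).

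The order of the subunits was compared on a per-length scale, CPM per kilobase of annotated exon. In WT ESCs Chrna9 led with 4.80 ± 1.33 (SD, n = 2), followed by Chrnb1 with 2.03 ± 0.0435 and Chrna7 with 1.41 ± 0.0118, and the libraries of neighbours in this order did not overlap. Chrna4 at 0.503, Chrnb4 at 0.495 and Chrnb2 at 0.395 came next, with overlapping libraries from each to the next. Chrna5 at 0.115 and Chrna1 at 0.110 also overlapped, and Chrna2 and Chrna3 were under the floor of counts and were not ordered. In Rest-/- ESCs Chrnb2 led with 13.0 ± 0.237 (SD, n = 2). Below it Chrna9 (5.71 ± 1.71), Chrnb1 (2.72 ± 0.950) and Chrna7 (1.41 ± 0.107) kept their order. Chrna4 at 0.478 and Chrnb4 at 0.400 overlapped, as did Chrna3 at 0.310 and Chrna5 at 0.247, and Chrna1 followed at 0.128.

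Summed over the 10 subunits, the per-length level came to 10.6 and 9.15 in WT, against 26.1 and 22.7 in Rest-/- ESCs. Without Chrnb2 the sums were 10.3 and 8.67 in WT and 13.3 and 9.58 in Rest-/- ESCs, with overlapping groups. Chrnb2 made up 2.93% and 5.23% of the sum in WT and 49.1% and 57.8% in Rest-/- ESCs. Among all 14159 tested genes with an annotated exon length, 11.2% had a lower per-length level than Chrnb2 in WT ESCs and 65.9% did in Rest-/- ESCs. For Chrna9 these shares were 44.1% and 47.4%, so the most abundant subunit of WT ESCs lay near the middle of the tested genes in both genotypes.

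**Figure D4:**
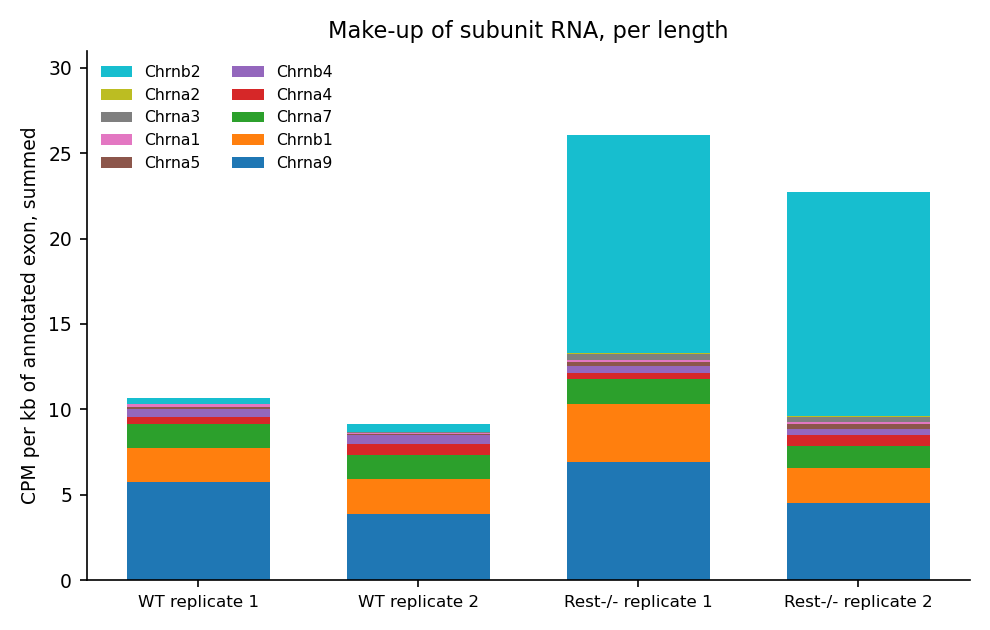
Stacked bars of CPM per kilobase of annotated exon for the 10 subunits in each of the 4 libraries. The Chrnb2 segment grew from 2.93% and 5.23% of the bar for WT to 49.1% and 57.8% for Rest-/-, while Chrna9 was the largest segment in WT.

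Apart from Chrnb2, no subunit had a match to all 12 informative RE1 positions within 20 kb of a start site, and the nearest such match to Chrna2 was at 20588 bp. When 11 of the 12 positions sufficed, 7 of the 10 subunits had a match within 20 kb, where 44.3% of the tested genes with a position did. Within 1 kb only Chrnb2 had one, against 6.18% of those genes. The partial matches nearest to a start were those of Chrna2, 1562 bp upstream, and Chrna1, 2189 bp upstream. The partial matches that lie within introns of 3 subunits are printed for comparison with the Chrnb2 site, which also lies within its gene, again with 6 bases on either side and with capitals at matching informative positions: Chrna3 (chr9:54871846-54871860, minus strand, in an intron 2513 bp downstream of the start), Chrna7 (chr7:70354549-70354563, minus strand, in an intron 2856 bp downstream) and Chrna4 (chr2:180760994-180761008, plus strand, in an intron 12891 bp downstream).
Chrna3: ctactcCtGgACCcgGGACAGggtcac
Chrna7: aaatctCAGcACtctGGACAGaggcac
Chrna4: tcagagCtGcACCggGGACAGggcatg
A further partial match at chr9:54877184-54877198 lay 2825 bp upstream of the Chrna3 start and inside a UTR exon of Chrnb4. In the RefSeq promoter windows of GRCm38.p6, from 250 bases before to 50 bases after a start, 0.0578% of 32851 promoters held the full core. None of the 10 windows found for 9 of the subunits held it, and the Chrnb2 site itself lies further downstream than such a window reaches.

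Acetylcholine signalling beyond the members was read from 35 further genes, the enzymes and transporters of the transmitter, receptor chaperones and modulators, clustering proteins, muscarinic receptors and the remaining nicotinic subunits. Of these, 17 were tested and none was called in either direction by edgeR's quasi-likelihood test, with 2 at an unadjusted p under 0.05, where 1036 of all 15444 genes were. The exact tests and DESeq2 also called none of them. A fit with the replicate number as a block, a pairing that the labels do not state, called 2, Ric3 and Tmem35. That fit called 2621 of all 15444 genes. The median log2 fold change of the 17 was 0.089. Of the 17, 5 had both Rest-/- libraries above both WT libraries (16.5% of all tested genes did) while 3 had both below (15.4% did). All 4 tested clustering genes and the sole tested muscarinic receptor, Chrm4, were among those not called.

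The genes at an unadjusted p under 0.05, named here after their values were seen, were the chaperones Ric3 and Tmem35. Ric3, which assists the assembly of nicotinic receptors, had 615 and 336 counts in WT and 986 and 547 counts in Rest-/- ESCs. The fitted difference was 0.96 (SE 0.35, adjusted p = 0.733), and the groups did not overlap in CPM, with at most 19.9 in WT and at least 24.7 in Rest-/- ESCs. Tmem35, a chaperone needed for surface expression of the Chrna7 product, had 102 and 62 counts in WT and 34 and 25 counts in Rest-/- ESCs, a log2 fold change of -1.19 (SE 0.37, adjusted p = 0.662). Tmem35 is X-linked, and over the 564 tested X-linked genes the median was -0.41, beside -0.0047 for all genes tested. Whether this bears on Tmem35 was not tested. Chat, the enzyme that makes acetylcholine, had no counts in WT and 2 and 1 counts in Rest-/- ESCs. Slc18a3, the vesicular transporter of acetylcholine, had 16 and 25 counts in WT and 39 and 25 counts in Rest-/- ESCs (log2 fold change 0.87, adjusted p = 0.965).

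The neighbours of Chrnb2 in expression pattern were sought among the tested genes by Euclidean distance between log2(CPM + 0.5) values, each centred over the 4 libraries. The 5 nearest lay at distances from 0.562 to 0.889. Among them were Vgf, a secreted neuropeptide precursor, with 287 and 301 counts in WT and 5100 and 4452 counts in Rest-/- ESCs, and Srrm3, a splicing regulator, with 16 and 36 counts in WT and 486 and 481 counts in Rest-/- ESCs. The remaining 3 were the pseudogenes Gm6594 and Rps15a-ps8 and a locus without a symbol in the tables used here. Counts of Rps15a-ps8 are uncertain, since reads can be shared with other copies of Rps15a. With 4 libraries, this distance mainly ranks genes by the size of the difference between the genotypes.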

How the data were processed

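Per the labels, the authors prepared TruSeq v2 libraries from total RNA; per the methods, reads were aligned with Subread and counted with featureCounts. The submitters' processing notes also name the build mm9; tool versions and the strand setting are not given in the sources used here. The deposited values are whole-number counts per Entrez gene; 368 rows without an identifier were left out.

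Counts were analysed in R 4.3.3 with edgeR 4.0.16 (TMM, filterByExpr, quasi-likelihood test by genotype without a block, prior count 0.125, Benjamini-Hochberg adjustment over all genes tested), checked on simulated counts. Standard errors are the log2 fold change over the square root of the F statistic. Alternatives were RLE and library-size scaling, 2 other filters, exact tests, DESeq2 1.42.0, a prior count of 2, a replicate block and leaving out each library. Positions, exon lengths and RE1 matches came from GENCODE M1 on NCBIM37 (mm9), which matched 21860 of 26301 genes.

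The members and lists were chosen with earlier results of these data known. Named genes were the members, Rest, genes of the acetylcholine list that were called or that differed by at least 1 on the log2(CPM + 0.5) scale without overlap, the nearest 2 genes on each side of such members, and the 5 nearest in pattern to a called member. The list gave none by this rule; those named from it, and the markers, were chosen after their values were seen.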

Additional observations from a re-analysis of the deposited data

How the results depend on the processing

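Chrnb2 stayed higher in Rest-/- ESCs under all 13 alternatives tried, with a log2 fold change between 4.75 and 5.37. Of 9 tested subunits, 1 was called in the main comparison. None (0) was called when 10 counts were required in every library, which also tests fewer genes, and 2, Chrnb2 and Chrna3, were called with either exact test, with DESeq2 and with the replicate block. Over all genes 9 were called. Without a filter 53 were called, with the stricter filter 3, with the exact tests 274 (tag-wise) and 343 (common dispersion), with DESeq2 245, with the replicate block 2621, and between 60 and 113 when 1 library was left out (72 and 113 without WT replicate 1 and 2, 68 and 60 without Rest-/- replicate 1 and 2). The cause of these shifts was not tested. The labels give both genotypes replicates 1 and 2 but state no link between them. The difference of replicate 1 from replicate 2 correlated between the genotypes across genes (Pearson's r = 0.81), as a description. Of the acetylcholine list 0 were called except with the replicate block, which called 2, Ric3 and Tmem35. Signs that changed belonged to small differences: leaving out 1 library moved Chrna1 from -0.40 to 1.30, Chrna4 from -0.51 to 0.31, Chrna7 from -0.082 to 0.064 and Chrna9 from -0.088 to 0.56, and scaling by library size gave Chrna7 0.0075. Allowing 11 of 12 RE1 positions raised the subunits with a match within 20 kb from 1 to 7. Depth limits Chrna1, Chrna2, Chrna3 and Chrna5, which had at most 29 counts in any library.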
